A study of Homo sapiens with 11 samples.

Results

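Transcripts of 10 genes of the NF-κB system were followed across control HEK293T cells and 3 siRNA knockdowns. They were taken by gene name from a table of 58735 genes and comprise the inhibitor genes NFKBIA, NFKBIB and NFKBIE, the factor genes NFKB1, NFKB2, RELA, RELB and REL, and TNFAIP3 and TNFRSF9. All 10 were listed, and all 10 passed the filter on low counts that left 18368 genes for testing. Against control, 7 of the 10 rose and 2 fell in siNAE1 cells, 2 rose and 3 fell in siUBE2M cells, and 4 rose and 1 fell in siURM1 cells, where rose and fell mean a Benjamini-Hochberg adjusted p under 0.05 in edgeR's quasi-likelihood test. Of all genes tested, 54.7% changed in siNAE1, 45.3% in siUBE2M and 41.6% in siURM1, so that the 5 of 10 in siUBE2M and in siURM1 were near the share of all genes. NFKB2 and TNFAIP3 rose and TNFRSF9 fell in each of the 3 knockdowns, while NFKBIB rose in siNAE1 and fell in siUBE2M.

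NF-κB factors are dimers of Rel family proteins that IκB inhibitors hold in the cytoplasm. On stimulation the IκB kinase complex phosphorylates an IκB protein, a cullin-RING ligase made of CUL1, SKP1, RBX1 and a β-TrCP subunit ubiquitinates it, the proteasome degrades it, and the freed dimer enters the nucleus. The cullin works best when NEDD8, a ubiquitin-like protein, is attached to it by the NAE1/UBA3 activating enzyme and the conjugating enzyme UBE2M. The same ligase is used to process the NFKB2 precursor p100 to p52, and several of the genes described here, NFKBIA and TNFAIP3 among them, are themselves known NF-κB targets. These steps act on proteins, whereas messenger RNA was measured here.

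The cells were of the HEK293T line, a human embryonic kidney line, and no cytokine or other stimulus of the pathway is named in the labels. Cells were harvested 48 h after transfection with siRNA against NAE1 (50 nM, siNAE1, n = 3 libraries), UBE2M (70 nM, siUBE2M, n = 3) or URM1 (60 nM, siURM1, n = 2), 1 siRNA product for each gene. URM1 is a ubiquitin-like protein and sulfur carrier, and the comparison asks how the transcripts respond to its loss and to that of the NAE1 and UBE2M enzymes. The controls (n = 3) are labelled as control siRNA, and the study's methods describe a non-targeting siRNA as the negative control, while a supplementary legend gives these libraries the code HKWT.

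The libraries held 11733163 to 16321391 counts. In TMM-scaled CPM, the share of a library's counts that a gene holds, NAE1 was at 39% of control in siNAE1 cells, UBE2M at 6.34% in siUBE2M cells and URM1 at 28.6% in siURM1 cells. The targets were also followed in the other knockdowns, where each but URM1 in siUBE2M passed the test. UBE2M was at 89.3% of control in siNAE1 and 77.5% in siURM1 (adjusted p = 0.029 and 8.9e-05), NAE1 at 121% in siUBE2M and 130% in siURM1 (adjusted p = 0.0019 and 0.00022), and URM1 at 121% in siNAE1 and 89.5% in siUBE2M (adjusted p = 0.0032 and 0.096). The UBE2M call in siNAE1 was lost without control replicate 1, 2 or 3 or siNAE1 replicate 1 or 2 (adjusted p = 0.055 to 0.097). It was also lost with limma on log2(FPKM + 1) and log2(FPKM + 0.1) (adjusted p = 0.071 and 0.084). PAX2, SALL1, EYA1, NEFL, NEFM and INA, genes expressed in HEK293T cells, each had at least 59 counts in every library. Some of their levels differed between groups. In the order control, siNAE1, siUBE2M and siURM1, the mean of NEFM was 78, 178, 71.8 and 178 CPM. That of EYA1 was 27.2, 19.6, 24.1 and 12.1, and that of PAX2 10, 9.49, 5.35 and 19. Of leukocyte genes, listed because much NF-κB signalling is described in those cells, CD3D, CD3E and MS4A1 had 0 counts in all 11 libraries, which allows up to 3 counts in a library, and PTPRC had at most 3. CD14, a monocyte marker, had a mean of 0.474 CPM in control, 2.44 in siNAE1, 2.49 in siUBE2M and 0.79 in siURM1.

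The order of the 10 transcripts was first compared as FPKM, a level scaled to both gene length and library size, because only a value per length can be set between genes. NFKBIB was the most abundant in control, at 23.1 ± 0.615 FPKM (SD, n = 3), followed by RELA at 14.1 ± 0.289 and NFKB2 at 8.89 ± 0.566. NFKB1 (7.23 ± 0.843) and NFKBIA (7.16 ± 0.652) came next with overlapping ranges, then NFKBIE at 3.47 ± 0.411 and RELB at 1.3 ± 0.122. The lowest were TNFAIP3 at 0.972 ± 0.041, REL at 0.713 ± 0.156 and TNFRSF9 at 0.418 ± 0.188, with REL and TNFRSF9 overlapping. HEK293T cells in this experiment therefore held IκBβ and RelA messages well above those of c-Rel and RelB, the Rel proteins best known from lymphoid cells. The order rests on the listed gene lengths, and that of REL, 13170 bases, was the longest of the 10. In CPM, REL in control (9.47) stood above NFKBIE (9.05), TNFAIP3 (4.95) and RELB (3.98).

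**Figure D1:**
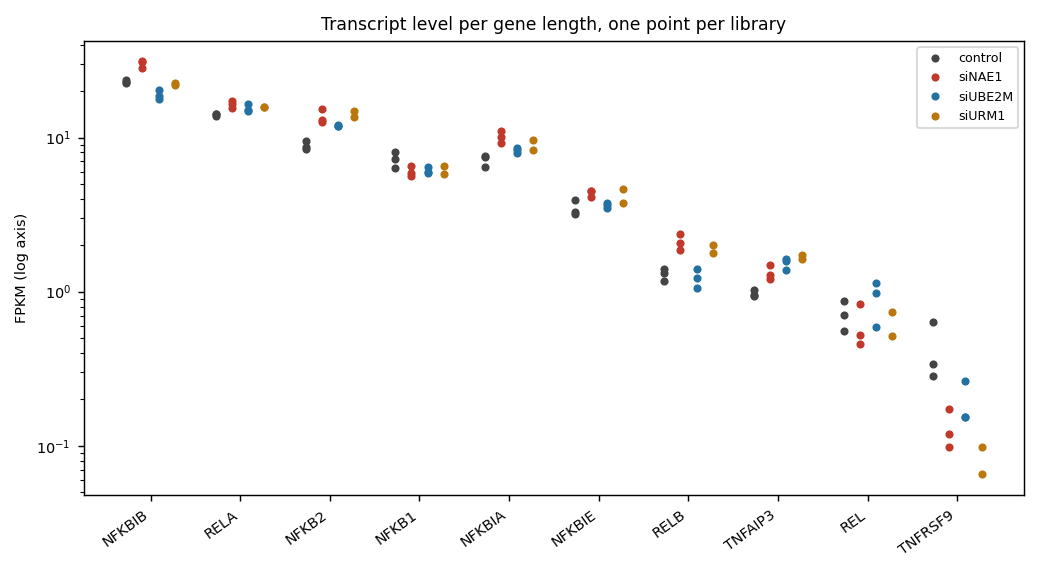
FPKM (log axis) of the 10 genes, ordered by their mean in control, with one point per library and one colour per group. NFKBIB and RELA are the highest in all 4 groups and TNFRSF9 is the lowest in each group by its mean, and NFKBIA lies above NFKB1 in the 3 knockdowns but overlaps it in control.

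In each knockdown the first 3 places were the same as in control. NFKBIA moved above NFKB1 with no overlap of ranges in siNAE1 (10.1 ± 0.938 against 6.00 ± 0.480 FPKM), siUBE2M (8.25 ± 0.297 against 6.10 ± 0.277) and siURM1 (8.94 ± 0.955 against 6.19 ± 0.526, n = 2). In siUBE2M the mean of TNFAIP3 (1.53 ± 0.136) stood above that of RELB (1.23 ± 0.174), and RELB overlapped both TNFAIP3 and REL (0.905 ± 0.284). No other neighbours in a knockdown's order overlapped, including REL and TNFRSF9.

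The promoters of these genes are shown because most of them carry the letters of the NF-κB binding motif. RefSeq promoter sequences (GRCh38.p14, 250 bases before to 50 bases after a start) were held for 8 of the 10 genes, NFKBIE and RELB being the others, as 13 promoters of 300 bases. The κB consensus, a motif of 10 bases, was searched on both strands, and a match that reads as the consensus on both strands was counted on each. It was found in 8 of the 13 promoters and in 7 of the 8 genes (87.5%), against 11.3% of 35116 promoters and 13.3% of 27305 genes in the whole table. Both RELA promoters lacked it. One window of 30 bases per gene is given 5′ to 3′ on the gene's strand, with the matched bases in capitals:
NFKBIA: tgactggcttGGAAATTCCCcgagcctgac
NFKBIB: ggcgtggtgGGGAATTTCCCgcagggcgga
NFKB1: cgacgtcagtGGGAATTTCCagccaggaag
NFKB2: aaacgtcatGGGAATTCCCCcctccggggg
REL: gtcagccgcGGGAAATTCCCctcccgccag
TNFAIP3: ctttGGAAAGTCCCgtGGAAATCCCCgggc
TNFRSF9: agctgtggtGGGAATTTCCCatgagacccc

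The NFKBIA window (chr14:35404811-35404840, minus strand) lay in no annotated transcript of GENCODE v44, with its match beginning 81 bases before the RefSeq start. The NFKB1 window (chr4:102501300-102501329, plus strand) ended on the first base of the gene as listed and lay in an exon of the neighbouring ENSG00000260651. The windows of NFKBIB (chr19:38899932-38899961, plus), REL (chr2:60881518-60881547, plus) and TNFRSF9 (chr1:7940893-7940922, minus) each lay in an annotated UTR exon of an isoform of the same gene, as did that of TNFAIP3 (chr6:137867188-137867217, plus), which holds 2 separate matches. NFKB2 had matches at 4 places in 2 promoters, the one shown being chr10:102394462-102394491 on the plus strand, in a UTR exon. A match says only that these letters are present, and binding was not measured.

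The 3 canonical inhibitor genes each rose in siNAE1 cells, NFKBIE with a call that was easily lost. In siUBE2M only NFKBIB passed the test, with a fall, and in siURM1 only NFKBIA, with a rise. NFKBIA (ENSG00000100906, chr14:35401511-35404749, minus strand) encodes IκBα, the inhibitor that is degraded and resynthesised fastest after a stimulus. Its CPM was 17.9, 18.1 and 15.3 in control, 22.1, 24.3 and 26.6 in siNAE1, 20.5, 19.1 and 19.8 in siUBE2M, and 19.8 and 23.0 in siURM1. Every knockdown library was above every control library, and the siNAE1 libraries were also all above those of siUBE2M. The log2 fold change against control was 0.50 (SE 0.11, adjusted p = 0.00018) in siNAE1 and 0.32 (SE 0.12, adjusted p = 0.031) in siURM1, while the value of 0.21 (SE 0.11, adjusted p = 0.12) in siUBE2M did not pass the test. The siURM1 call was lost without control replicate 3 (0.26, adjusted p = 0.12) and without siURM1 replicate 2 (0.21, adjusted p = 0.31). Here and below, where a siURM1 library is left out the group holds 1 library, which is assumed to vary like those of the other groups, since these give the spread of the fit. With no filter on low counts the siURM1 call was also lost (adjusted p = 0.051).

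NFKBIB (ENSG00000104825, chr19:38899700-38908893, plus strand) encodes IκBβ, which binds mainly RelA and c-Rel dimers and is replaced more slowly. In CPM it was 53.6, 53.3 and 55.8 in control, 66.3, 73.2 and 73.6 in siNAE1, 41.8, 43.7 and 47.3 in siUBE2M, and 52.8 and 51.6 in siURM1. The siNAE1 libraries were all above and the siUBE2M libraries all below the control, so that the groups did not overlap in either direction. The transcript rose to 131% of control in siNAE1 (log2 fold change 0.39, SE 0.07, adjusted p = 4.8e-05) and fell to 81.7% in siUBE2M (-0.29, SE 0.08, adjusted p = 0.0021), and the siURM1 value of -0.06 (SE 0.08, adjusted p = 0.64) did not pass. The 163 bases shared with SIRT2 on the opposite strand are a limit of this gene, since the strand setting of the counting is not given in the sources used here. SIRT2 itself had log2 fold changes of 0.07, 0.00 and 0.11 (adjusted p = 0.46, 0.97 and 0.34) in siNAE1, siUBE2M and siURM1.

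NFKBIE (ENSG00000146232, chr6:44258166-44265788, minus strand) encodes IκBε, an inhibitor that acts late in a response. Its CPM was 10.3, 8.24 and 8.58 in control, 11.8, 10.8 and 11.8 in siNAE1, 9.57, 9.84 and 9.06 in siUBE2M, and 9.74 and 12.1 in siURM1. The siNAE1 libraries were all above control, by a small margin, and the other knockdowns overlapped it. Its rise in siNAE1 (log2 fold change 0.34, SE 0.14, adjusted p = 0.035) was no longer past the test without control replicate 2 or 3, siNAE1 replicate 1 or siNAE1 replicate 3 (0.28 to 0.45 over all libraries left out in turn, adjusted p up to 0.13), and DESeq2 and the other alternatives gave adjusted p = 0.02 to 0.14. In siUBE2M it was 0.07 (SE 0.14, adjusted p = 0.72) and in siURM1 0.27 (SE 0.15, adjusted p = 0.16).

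**Figure D2:**
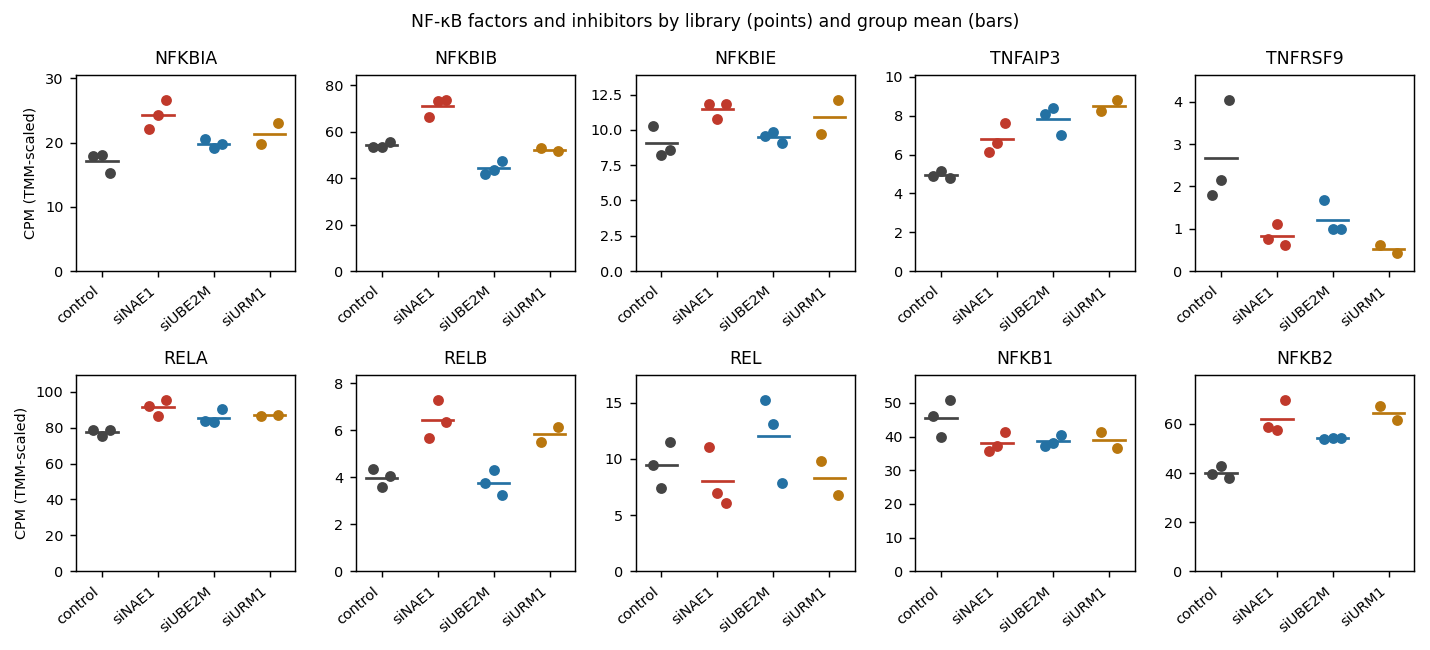
TMM-scaled CPM of each of the 10 genes, one panel per gene with its own axis from 0, one point per library and a bar at the group mean, for control, siNAE1, siUBE2M (n = 3 each) and siURM1 (n = 2). NFKB2 and TNFAIP3 are above control in every knockdown library and TNFRSF9 is below it, whereas NFKBIB is above control in siNAE1 and below it in siUBE2M.

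Among the factor genes NFKB2 had the clearest rise, and its counterpart NFKB1 was lower. NFKB2 (ENSG00000077150, chr10:102394110-102402529, plus strand) encodes p100, which both inhibits RelB dimers and is the precursor of p52 in the non-canonical branch. Its CPM was 39.7, 42.9 and 38.0 in control, 58.7, 57.3 and 69.5 in siNAE1, 53.9, 54.2 and 54.4 in siUBE2M, and 67.3 and 61.4 in siURM1. All knockdown libraries were above all control libraries, and those of siUBE2M lay closest together. The transcript rose to 153% of control in siNAE1 (log2 fold change 0.62, SE 0.08, adjusted p = 1.2e-07), 135% in siUBE2M (0.43, SE 0.08, adjusted p = 6.6e-05) and 160% in siURM1 (0.68, SE 0.09, adjusted p = 2.3e-07).

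NFKB1 (ENSG00000109320, chr4:102501329-102617302, plus strand) encodes p105, the precursor of the p50 subunit that pairs with RelA. It was at 46.1, 40 and 50.7 CPM in control, 35.6, 37.1 and 41.4 in siNAE1, 37.3, 38.1 and 40.5 in siUBE2M, and 41.4 and 36.7 in siURM1. Control replicate 2 lay within the range of each knockdown, so the groups overlapped. It fell in siNAE1 (-0.26, SE 0.09, adjusted p = 0.014) and in siUBE2M (-0.24, SE 0.09, adjusted p = 0.029), and the siURM1 value of -0.22 (SE 0.10, adjusted p = 0.077) did not pass. The siNAE1 call was lost without control replicate 3 (-0.18, adjusted p = 0.13), siNAE1 replicate 1 (-0.22, adjusted p = 0.076) or siNAE1 replicate 2 (-0.25, adjusted p = 0.052). The siUBE2M call was lost without control replicate 1 (-0.23, adjusted p = 0.078), control replicate 3 (-0.15, adjusted p = 0.23), siUBE2M replicate 1 (-0.21, adjusted p = 0.11) or siUBE2M replicate 2 (-0.22, adjusted p = 0.095). The siUBE2M call was also lost with limma (adjusted p = 0.067 and 0.07 with a pseudocount of 1 and 0.1). The siURM1 value passed without control replicate 2 (-0.30, adjusted p = 0.025), with at least 10 counts in every library (-0.25, adjusted p = 0.041) and with protein-coding genes (-0.25, adjusted p = 0.04). Over all libraries left out in turn it was -0.31 to -0.13 (adjusted p up to 0.46).

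RELA (ENSG00000173039, chr11:65653596-65663094, minus strand) encodes the p65 subunit, which carries the transactivating domain of the canonical dimer. Its CPM was 78.6, 75.5 and 78.7 in control, 92.0, 86.6 and 95.1 in siNAE1, 83.5, 82.9 and 90.3 in siUBE2M, and 86.6 and 87.1 in siURM1. All knockdown libraries were above all control libraries, by less than the rise of NFKB2. The difference passed the test in siNAE1 (0.23, SE 0.07, adjusted p = 0.0044) and not in siUBE2M (0.14, SE 0.07, adjusted p = 0.09) or siURM1 (0.16, SE 0.08, adjusted p = 0.083).

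RELB (ENSG00000104856, chr19:45001430-45038198, plus strand) encodes the partner of p52 in the non-canonical dimer. With 46 to 104 counts per library it stood at 4.35, 3.57 and 4.04 CPM in control, 5.68, 7.27 and 6.37 in siNAE1, 3.76, 4.33 and 3.23 in siUBE2M, and 5.49 and 6.16 in siURM1. The siNAE1 and siURM1 libraries were all above control, and siUBE2M overlapped it. RELB rose in siNAE1 (0.69, SE 0.19, adjusted p = 0.0026) and in siURM1 (0.55, SE 0.21, adjusted p = 0.036), and in siUBE2M the value was -0.08 (SE 0.20, adjusted p = 0.79). The siURM1 call was lost without control replicate 2 (0.48, adjusted p = 0.11), control replicate 3 (0.57, adjusted p = 0.058), siURM1 replicate 1 (0.63, adjusted p = 0.068) or siURM1 replicate 2 (0.47, adjusted p = 0.19), the last 2 with the spread taken from the other groups, and with no filter (adjusted p = 0.072).

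REL (ENSG00000162924, chr2:60881521-60931610, plus strand) encodes c-Rel. It varied widely within groups, at 9.48, 7.38 and 11.5 CPM in control, 11.1, 6.99 and 6.10 in siNAE1, 15.2, 13.1 and 7.87 in siUBE2M, and 9.86 and 6.79 in siURM1. All 3 knockdowns overlapped the control, and none passed the test against it (siNAE1 -0.23, SE 0.21, adjusted p = 0.38; siUBE2M 0.35, SE 0.20, adjusted p = 0.16; siURM1 -0.18, SE 0.23, adjusted p = 0.57). Without siUBE2M replicate 3, the lowest library of its group, the siUBE2M value passed (0.58, adjusted p = 0.012). Over all libraries left out in turn it was 0.16 to 0.58 (adjusted p up to 0.59).

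TNFAIP3 (ENSG00000118503, chr6:137867188-137883312, plus strand) encodes A20, a ubiquitin-editing enzyme that shuts off signalling upstream of the IκB kinase. Its CPM was 4.89, 5.17 and 4.80 in control, 6.15, 6.57 and 7.63 in siNAE1, 8.10, 8.39 and 7.02 in siUBE2M, and 8.24 and 8.80 in siURM1. Each knockdown library exceeded each control library, and siURM1 exceeded siNAE1 throughout. The rise was to 136% of control in siNAE1 (0.45, SE 0.17, adjusted p = 0.022), 158% in siUBE2M (0.66, SE 0.16, adjusted p = 0.0011) and 172% in siURM1 (0.78, SE 0.18, adjusted p = 0.00051). The siNAE1 call was lost without control replicate 1 (0.44, adjusted p = 0.052), control replicate 3 (0.43, adjusted p = 0.057) or siNAE1 replicate 3 (0.36, adjusted p = 0.096), and also with no filter (adjusted p = 0.053) and with limma on log2(FPKM + 1) (adjusted p = 0.051). An antisense gene, AL357060.1, shares 1046 bases with it and had 0 to 18 counts per library, against 76 to 132 for TNFAIP3, and did not pass the test in siNAE1, siUBE2M or siURM1 (0.01, -1.08 and -1.59, adjusted p = 0.99, 0.21 and 0.13).

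TNFRSF9 (ENSG00000049249, chr1:7915894-7943165, minus strand) encodes 4-1BB (CD137), a costimulatory receptor of activated lymphocytes that signals to NF-κB, and it had the largest change of the 10. Its counts were few, 30, 35 and 64 in control, 10, 16 and 7 in siNAE1, 23, 15 and 14 in siUBE2M, and 10 and 6 in siURM1. As CPM these were 1.81, 2.15 and 4.04, then 0.768, 1.12 and 0.628, then 1.69, 0.984 and 0.983, then 0.624 and 0.416. All knockdown libraries lay below all control libraries, although siUBE2M replicate 1 came close to control replicate 1, and control replicate 3 stood well above its fellow controls. The transcript fell to 32.2% of control in siNAE1 (-1.64, SE 0.40, adjusted p = 0.0008), 45.8% in siUBE2M (-1.13, SE 0.37, adjusted p = 0.014) and 19.9% in siURM1 (-2.33, SE 0.48, adjusted p = 0.00021). The siUBE2M call was lost without control replicate 3 (-0.70, adjusted p = 0.21), siUBE2M replicate 2 (-0.98, adjusted p = 0.065) or siUBE2M replicate 3 (-1, adjusted p = 0.054).

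**Figure D3:**
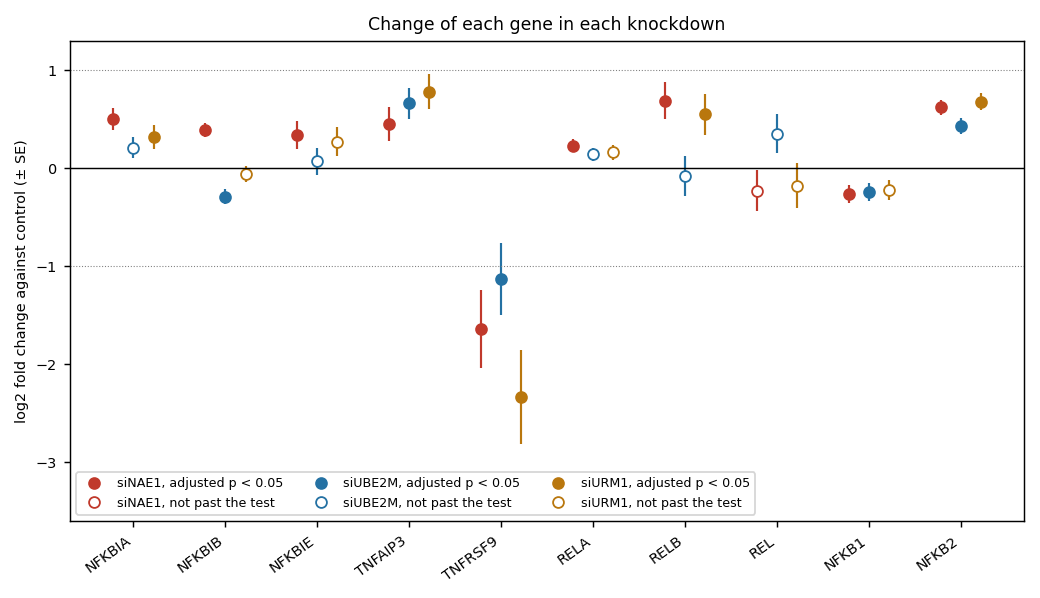
Log2 fold change of each gene against control in siNAE1, siUBE2M and siURM1 with its standard error from edgeR, filled where the adjusted p was under 0.05 and open where it was not, with dotted lines at 1 and -1. TNFRSF9 alone lies beyond a line, at -1.64, -1.13 and -2.33, and NFKBIB has filled points on both sides of 0.

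These counts have to be read against how much of the transcriptome changed. In siNAE1, 9 of the 10 genes changed, with 54.7% of all tested genes changed (27.6% higher and 27.1% lower). In siUBE2M 5 of 10 changed, against 45.3% of all genes (22.7% higher and 22.6% lower), and in siURM1 also 5 of 10, against 41.6% (20.8% higher and 20.8% lower). The shares in siUBE2M and siURM1 were thus near those of all genes. DESeq2 with 4 groups did not call NFKBIE and TNFAIP3 in siNAE1 (adjusted p = 0.1 and 0.07) or NFKBIA and RELB in siURM1 (adjusted p = 0.062 and 0.088), and with 2 groups per fit it also did not call NFKB1 in siUBE2M (adjusted p = 0.051). With the added limit that the log2 fold change be 1 or more in size, which defines a DEG here, TNFRSF9 was the single DEG in each knockdown, where 13.9% of all genes were DEGs in siNAE1, 7.11% in siUBE2M and 7.62% in siURM1. The median log2 fold change of the 10 was 0.37 in siNAE1, 0.10 in siUBE2M and 0.22 in siURM1, beside medians over all tested genes of 0.00, 0.01 and -0.02. The 3 comparisons share the same control libraries, so their values are not independent of each other.

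The knockdowns were then compared with each other, at the unequal siRNA doses given above. Between siNAE1 and siUBE2M, whose targets act in successive steps of NEDD8 attachment, 4 of the 10 genes differed. NFKBIB was higher in siNAE1 by 0.68 on the log2 scale (SE 0.08, adjusted p = 9.1e-09), RELB by 0.77 (SE 0.20, adjusted p = 0.0016) and NFKBIA by 0.30 (SE 0.11, adjusted p = 0.024), with no overlap of libraries in any of these. REL was lower in siNAE1 (-0.58, SE 0.21, adjusted p = 0.024), with overlapping libraries. The NFKBIA difference was lost without siNAE1 replicate 2 (0.30, adjusted p = 0.053), siNAE1 replicate 3 (0.24, adjusted p = 0.098) or siUBE2M replicate 2 (0.26, adjusted p = 0.093), and the REL difference without siNAE1 replicate 2 or 3 or siUBE2M replicate 1 or 2 (-0.87 to -0.38 over all libraries left out in turn, adjusted p up to 0.17). NFKB2 was 0.19 higher in siNAE1 (SE 0.08, adjusted p = 0.058) and passed without siNAE1 replicate 1 (0.22, adjusted p = 0.046) or siNAE1 replicate 2 (0.24, adjusted p = 0.033). Leaving out other libraries took it as low as 0.11 (adjusted p up to 0.31). By DESeq2 with 4 groups the NFKBIA and REL differences missed the threshold (adjusted p = 0.052 and 0.055). Of all genes, 44.3% differed between these knockdowns, 22.7% higher and 21.6% lower in siNAE1, and 7.84% were DEGs.

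NFKBIB was the 1 gene of the 10 that differed between siNAE1 and siURM1, higher in siNAE1 by 0.44 (SE 0.08, adjusted p = 8.3e-05), where 38.6% of all genes differed, 19.5% higher and 19.1% lower in siNAE1, and 6.76% were DEGs. Between siUBE2M and siURM1, 3 genes were lower in siUBE2M, namely NFKBIB by -0.24 (SE 0.09, adjusted p = 0.029), NFKB2 by -0.25 (SE 0.09, adjusted p = 0.027) and RELB by -0.62 (SE 0.21, adjusted p = 0.023), where 35.0% of all genes differed, 16.7% higher and 18.3% lower in siUBE2M, and 5.41% were DEGs. These 3 calls lay near the threshold, and each was lost when any of several libraries was left out. NFKBIB lost its call without siUBE2M replicate 1 (-0.20, adjusted p = 0.11), siUBE2M replicate 2 (-0.23, adjusted p = 0.075), siURM1 replicate 1 (-0.22, adjusted p = 0.15) or siURM1 replicate 2 (-0.26, adjusted p = 0.084). NFKB2 did so without siUBE2M replicate 1 (-0.25, adjusted p = 0.057), siUBE2M replicate 2 (-0.25, adjusted p = 0.058) or siURM1 replicate 1 (-0.18, adjusted p = 0.26), and RELB without siUBE2M replicate 3 (-0.52, adjusted p = 0.083) or siURM1 replicate 2 (-0.54, adjusted p = 0.14). NFKBIB also lost it with DESeq2 on 2 groups, upper quartile scaling and no filter (adjusted p = 0.084, 0.057 and 0.064), NFKB2 with upper quartile scaling and limma on log2(FPKM + 0.1) (adjusted p = 0.057 and 0.051), and RELB with DESeq2 (adjusted p = 0.052 with 4 groups and 0.12 with 2). REL was 0.53 higher in siUBE2M (SE 0.23, adjusted p = 0.072) and passed with no filter (0.53, adjusted p = 0.014), with edgeR on 2 groups (0.54, adjusted p = 0.043) and without siUBE2M replicate 3 (0.76, adjusted p = 0.0051) or siURM1 replicate 1 (0.83, adjusted p = 0.038). Over all libraries left out in turn it was 0.29 to 0.83 (adjusted p up to 0.49). TNFRSF9 was the 1 gene with an absolute log2 difference between knockdowns of 1 or more, at 1.2 higher in siUBE2M than in siURM1 (SE 0.52, unadjusted p = 0.028, adjusted p = 0.073), so by edgeR, and likewise by DESeq2, 0 of the 10 were DEGs between knockdowns.

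Since each library measured inhibitors and factors together, their balance was also described as ratios of FPKM, without a test. The summed FPKM of NFKBIA, NFKBIB and NFKBIE divided by that of the 5 factor genes was 1.06, 1.07 and 1.02 in control, 1.11, 1.22 and 1.13 in siNAE1, 0.851, 0.859 and 0.875 in siUBE2M, and 0.870 and 0.961 in siURM1. The siNAE1 libraries were above the control range and the siUBE2M and siURM1 libraries below it. In siURM1 the inhibitor sum itself was not lower, at 34.5 and 36.3 FPKM against 34.1, 33.6 and 33.6 in control. Its factor sum was higher, at 39.7 and 37.8 against 32.3, 31.4 and 33. In siUBE2M the inhibitor sum was lower (30, 30.2 and 31.9) and the factor sum higher (35.3, 35.2 and 36.5). NFKB2 counts here as a factor, although p100 also inhibits. NFKBIB contributed most of the inhibitor sum, 66.6% to 71.1% in control, 66.7% to 68.6% in siNAE1, 59.3% to 63.2% in siUBE2M and 60.7% to 65.2% in siURM1. RELA was 39.6% to 44.9% of the factor sum over all 11 libraries.

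The ratio of the precursor messages NFKB2 to NFKB1 was 1.2, 1.5 and 1.05 in control, 2.30, 2.15 and 2.34 in siNAE1, 2.02, 1.98 and 1.88 in siUBE2M, and 2.27 and 2.34 in siURM1. It was higher in every knockdown library than in any control library, and siUBE2M lay below the other knockdowns.

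**Figure D4:**
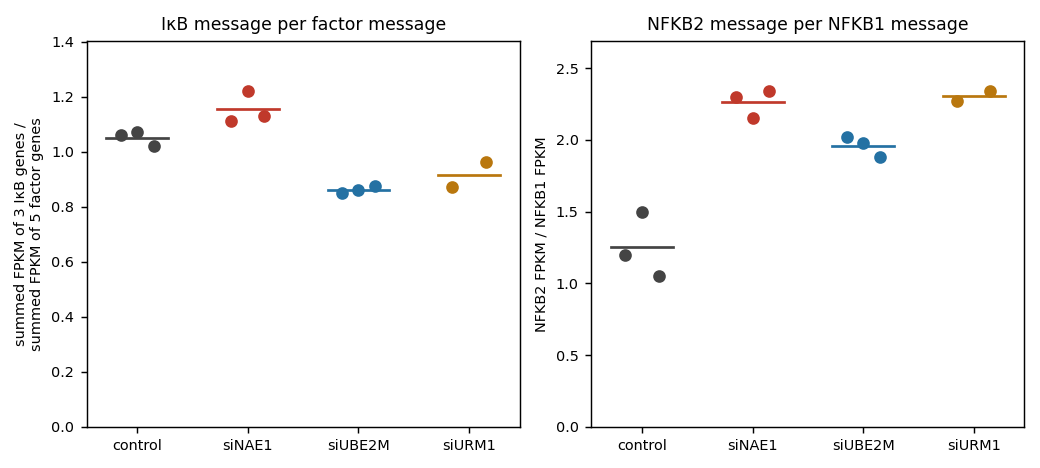
Left, summed FPKM of the 3 inhibitor genes divided by that of the 5 factor genes, and right, NFKB2 FPKM divided by NFKB1 FPKM, with one point per library and a bar at the group mean. On the left siNAE1 (1.11 to 1.22) lies above control (1.02 to 1.07) and siUBE2M (0.851 to 0.875) below it, and on the right all knockdown libraries (1.88 to 2.34) lie above control (1.05 to 1.5).

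The other genes of the pathway were taken from lists by role. Of 10 genes of the IκB kinase complex and the kinases and adaptors above it, 4 rose and 3 fell in siNAE1, 3 rose and 1 fell in siUBE2M, and 2 rose and 3 fell in siURM1, with median log2 fold changes of 0.16, 0.08 and -0.01. That is 70%, 40% and 50% of the list changed, beside 54.7%, 45.3% and 41.6% of all tested genes. TBK1, an IKK-related kinase, rose in all 3 (0.70, 0.71 and 0.48, adjusted p = 4e-08, 4.7e-08 and 0.00014), and TAB2, a ubiquitin-binding subunit of the TAK1 kinase complex, fell in all 3 (-0.78, -0.51 and -0.55, adjusted p = 3.2e-11, 2.3e-07 and 6.5e-07). These held the highest and the lowest value of that list over the 3 knockdowns.

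Among 17 receptor and adaptor genes, 14 were tested. In siNAE1 3 rose and 7 fell, in siUBE2M 3 rose and 2 fell, and in siURM1 1 rose and 2 fell (medians -0.11, 0.15 and -0.07). The shares changed were 71.4%, 35.7% and 21.4%, beside 54.7%, 45.3% and 41.6% of all genes. The number changed in siURM1 depended on the method, with 1 by DESeq2 on 2 groups and 5 with at least 10 counts in every library or protein-coding genes. TRADD, the death domain adaptor of TNF receptor 1, had the highest value, in siNAE1, where it rose to 199% of control (1.00, adjusted p = 1.3e-06), just under the DEG limit, with 0.10 in siUBE2M and 0.39 in siURM1 (adjusted p = 0.65 and 0.07). The siURM1 value of TRADD passed with edgeR on 2 groups (0.40, adjusted p = 0.043), without siUBE2M replicate 2 (0.40, adjusted p = 0.049) and without siURM1 replicate 2 (0.53, adjusted p = 0.047, 1 siURM1 library), and was 0.23 without siURM1 replicate 1 (adjusted p = 0.47). IRAK4, the kinase that relays signals of the interleukin-1 and Toll-like receptors, had the lowest value, in siNAE1 (-0.61, adjusted p = 4.6e-05), with 0.16 and -0.30 in siUBE2M and siURM1 (adjusted p = 0.25 and 0.056). The siURM1 value of IRAK4 passed with upper quartile scaling (-0.31, adjusted p = 0.049), at least 10 counts in every library (-0.32, adjusted p = 0.037), protein-coding genes (-0.32, adjusted p = 0.035) and without siNAE1 replicate 3 (-0.30, adjusted p = 0.045). It also passed without siURM1 replicate 2 (-0.54, adjusted p = 0.0066), where 1 siURM1 library is left and the other groups give the spread, and was -0.08 without siURM1 replicate 1 (adjusted p = 0.73).

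The list nearest to the targeted enzymes was that of the ligase that ubiquitinates IκB and its NEDD8 machinery, 14 genes without NAE1 and UBE2M themselves. Of these 6 rose and 3 fell in siNAE1, 4 rose and 4 fell in siUBE2M, and 4 rose and 2 fell in siURM1 (medians 0.06, -0.02 and 0.06). These are 64.3%, 57.1% and 42.9% of the list, beside 54.7%, 45.3% and 41.6% of all genes. NEDD8 had the highest value over the 3 knockdowns, in siNAE1, and rose in all of them (0.78, 0.39 and 0.32, adjusted p = 7.6e-09, 0.00074 and 0.011), with the siURM1 call lost without siURM1 replicate 2 (0.15, adjusted p = 0.37). UBE2D2, a ubiquitin-conjugating enzyme that works with this ligase, had the lowest, in siUBE2M, and fell in all 3 (-0.37, -0.73 and -0.46, adjusted p = 6.4e-06, 4.6e-11 and 2.6e-06).

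Of 12 further ubiquitin editors and brakes of the pathway, 4 rose and 7 fell in siNAE1, 4 rose and 4 fell in siUBE2M, and 4 rose and 4 fell in siURM1 (medians -0.23, -0.03 and -0.14). The shares changed were 91.7%, 66.7% and 66.7%, beside 54.7%, 45.3% and 41.6% of all genes. The 1 DEG was COMMD1, which promotes the degradation of RelA, at 11.2, 9.29 and 9.84 CPM in control and 5.08, 4.20 and 5.76 in siUBE2M (-1.02, adjusted p = 4.5e-06). It sat at the DEG limit, and its log2 fold change was under 1 in size without control replicate 1 or siUBE2M replicate 2 (-0.89 in the latter) and with limma (-0.76 with a pseudocount of 1), passing the test in each. It also fell in siNAE1 (-0.45, adjusted p = 0.015), and in siURM1 it was -0.40 (adjusted p = 0.064). The siNAE1 call was lost without control replicate 1 (-0.37, adjusted p = 0.081), without siNAE1 replicate 1 (-0.39, adjusted p = 0.067) and with DESeq2 on 2 groups (adjusted p = 0.053), and the siURM1 value passed with at least 10 counts in every library, edgeR on 2 groups, limma on log2(FPKM + 1) and protein-coding genes (adjusted p = 0.046, 0.048, 0.048 and 0.041). The nuclear inhibitors were NFKBID, BCL3 and NFKBIZ. BCL3, a coactivator of p50 and p52 dimers, rose in siNAE1 (0.62, adjusted p = 0.012) and siURM1 (0.67, adjusted p = 0.017) and was 0.17 in siUBE2M (adjusted p = 0.53). NFKBID rose in all 3 (0.39, 0.40 and 0.54, adjusted p = 0.042, 0.042 and 0.014), and NFKBIZ, with the lowest value of the list in siNAE1, was -0.15, 0.32 and -0.04 (adjusted p = 0.43, 0.077 and 0.88). The shares of the 3 nuclear inhibitors changed were 66.7%, 33.3% and 66.7%, beside 54.7%, 45.3% and 41.6% of all genes. The BCL3 calls were lost without control replicate 3 (0.49 and 0.55, adjusted p = 0.073 and 0.076), and also without siNAE1 replicate 2 (0.50, adjusted p = 0.081) and siURM1 replicate 1 (0.33, adjusted p = 0.42). With DESeq2 on 2 groups they had adjusted p = 0.059 and 0.09, and the siURM1 call was lost with limma too (adjusted p = 0.054 and 0.051 with a pseudocount of 1 and 0.1). The NFKBID calls in siNAE1 and siUBE2M were lost with DESeq2 (4 groups, adjusted p = 0.11 and 0.098) and without control replicate 1 (0.43 and 0.45, adjusted p = 0.052 and 0.052) or control replicate 3 (0.31 and 0.32, adjusted p = 0.16 and 0.16). They were also lost without siNAE1 replicates 1 or 3 (0.34 and 0.37, adjusted p = 0.12 and 0.089) and without siUBE2M replicates 1, 2 or 3 (0.43, 0.38 and 0.41, adjusted p = 0.056, 0.1 and 0.067). The NFKBID call in siURM1 was lost with DESeq2 on 2 groups (adjusted p = 0.076), without control replicate 3 (0.46, adjusted p = 0.057) or siURM1 replicate 2 (0.22, adjusted p = 0.47). NFKBIZ passed in siUBE2M without siUBE2M replicate 2 (0.42, adjusted p = 0.046).

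**Figure D5:**
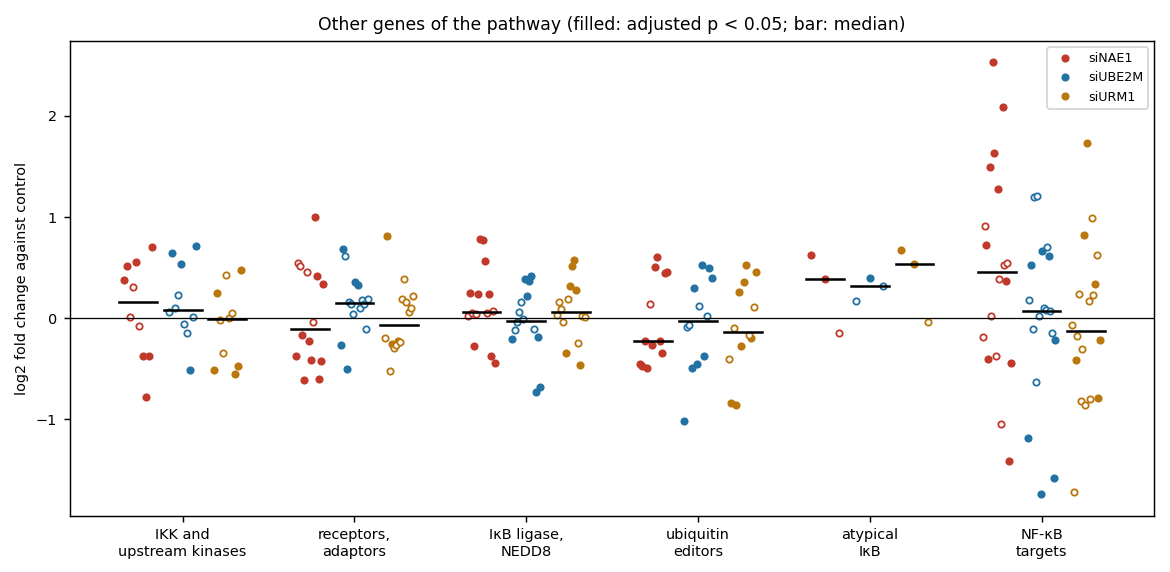
Log2 fold change against control of the tested genes of 6 pathway lists in siNAE1, siUBE2M and siURM1, one point per gene, filled where the adjusted p was under 0.05, with a bar at each list's median. Every list except the nuclear inhibitors has filled points on both sides of 0 in each knockdown. The NF-κB target genes span the widest range, from -1.74 to 2.53, but its ends are genes with few counts, ICAM1 in siUBE2M and CXCL8 in siNAE1.

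Of 31 genes commonly named as NF-κB targets, 18 were tested, and 7 rose and 3 fell in siNAE1, 3 rose and 4 fell in siUBE2M, and 3 rose and 3 fell in siURM1 (medians 0.46, 0.07 and -0.12). The shares changed were 55.6%, 38.9% and 33.3%, beside 54.7%, 45.3% and 41.6% of all genes. Which of the 31 passed the filter depended on low counts in some groups. Genes with few counts, such as CXCL8 and ICAM1, could pass it through a group where they were high. These figures, the medians included, are therefore only a description of the genes tested. GADD45B, a stress-induced regulator of JNK signalling, was at 9.36, 12.1 and 9.78 CPM in control and 31.6, 33.4 and 32.0 in siNAE1 (1.63, adjusted p = 1.6e-13), rose in siURM1 (0.82, adjusted p = 4.8e-06) and was 0.02 in siUBE2M (adjusted p = 0.92). IER3, an immediate early gene, rose in siNAE1 (1.28, adjusted p = 2.2e-06), siUBE2M (0.66, adjusted p = 0.01) and siURM1 (1.73, adjusted p = 5e-08), from 2.54, 2.52 and 3.66 CPM in control to 10.7 and 8.59 in siURM1. In siUBE2M its libraries (3.53, 5.18 and 4.99 CPM) overlapped control, and the call was lost without siUBE2M replicate 2 (0.57, adjusted p = 0.054) and with DESeq2 on 2 groups (adjusted p = 0.072).

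TRAF1, an adaptor that binds 4-1BB, fell with TNFRSF9 in all 3 knockdowns. It was at 14.4, 11.7 and 12.7 CPM in control, 3.92, 4.75 and 6.01 in siNAE1, 4.79, 4.52 and 3.65 in siUBE2M, and 7.36 and 7.55 in siURM1. The log2 fold changes were -1.41 (adjusted p = 1.3e-08), -1.58 (adjusted p = 2.5e-09) and -0.79 (adjusted p = 0.00042). By limma on log2(FPKM + 1) they were -0.77, -0.85 and -0.47, under the DEG limit in size but past the test, and on the same scale BCL2L1 in siUBE2M was -0.99 and IER3 in siNAE1 0.99. BCL2L1, which encodes the survival protein Bcl-xL, fell in siUBE2M from 24.3, 24.7 and 24.5 to 10.2, 10.4 and 11.6 CPM (-1.19, adjusted p = 2.8e-10) and was -0.19 in siNAE1 and -0.07 in siURM1 (adjusted p = 0.12 and 0.66).

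The remaining DEGs of the target list had few reads. The chemokine CXCL8 had 5, 2 and 7 counts in control and 11, 34 and 21 in siNAE1 (2.53, adjusted p = 0.00035), and the chemokine CXCL2 had 6, 3 and 7 and then 10, 22 and 5 (1.49, adjusted p = 0.031). The CXCL2 call was lost with DESeq2 (adjusted p = 0.085 with 4 groups and 0.12 with 2) and without control replicate 1 (1.57, adjusted p = 0.056), control replicate 2 (1.21, adjusted p = 0.12) or siNAE1 replicate 2 (0.89, adjusted p = 0.28). PLAU, the urokinase plasminogen activator, had 6, 16 and 21 counts in control and 54, 49 and 43 in siNAE1 (2.09, adjusted p = 3.1e-05), with 0.81 by limma on log2(FPKM + 1), a scale on which low values change less. ICAM1, an adhesion molecule, had 16, 13 and 6 counts in control and 3, 4 and 2 in siUBE2M (-1.74, adjusted p = 0.029). The ICAM1 call was lost with DESeq2 (adjusted p = 0.069 with 4 groups and 0.09 with 2), with no filter (adjusted p = 0.059) and without control replicate 1 (-1.46, adjusted p = 0.12), control replicate 2 (-1.65, adjusted p = 0.072), siUBE2M replicate 1 (-1.77, adjusted p = 0.063) or siUBE2M replicate 3 (-1.53, adjusted p = 0.092). PLAU was 0.99 in siURM1 (adjusted p = 0.08) and passed there without control replicate 3 (1.4, adjusted p = 0.033), with 0.62 at the lowest over the libraries left out, and it was 0.70 in siUBE2M (adjusted p = 0.19) and passed there without siUBE2M replicate 2 (1.08, adjusted p = 0.042) but was 0.03 without siUBE2M replicate 3 (adjusted p = 0.96). BCL2L1 was -0.19 in siNAE1 (adjusted p = 0.12) and passed there without siNAE1 replicate 2 (-0.31, adjusted p = 0.026), the value nearest to 0 without another library being -0.12.

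For TNFRSF9, the 3 tested genes outside the group with the most similar pattern of log2 CPM over the 11 libraries were ATAD2B (Pearson's r = 0.958), SMC2 (r = 0.956) and FERMT2 (r = 0.95). Their mean CPM was 34.6, 24.7, 25.3 and 21.4 for ATAD2B, 124, 89.4, 106 and 81.7 for SMC2, and 92.8, 71.0, 74.3 and 65.6 for FERMT2 in control, siNAE1, siUBE2M and siURM1. All 3 were highest in control and lowest in siURM1, as TNFRSF9 was, but they were chosen by this likeness, so a shared order follows from the choice. TNFRSF9 fell further relative to its control, to 32.2% in siNAE1, 45.8% in siUBE2M and 19.9% in siURM1. The points also share the libraries and their scaling.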

How the data were processed

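Poly(A) RNA of 11 HEK293T libraries was sequenced. The submitters' processing notes name fastp, HISAT2 2.0.5, featureCounts 1.5.0-p3 and DESeq2 1.20.0 with GRCh38. The deposited counts are whole fragments per gene without normalization, and the deposited FPKM values relate these counts to the gene length that the authors list and to library size. Neither the annotation version nor whether strand was used in counting is given in the sources used here. Low-count genes such as TNFRSF9 carry more counting error. The floor of 3 counts covers counting error only, whereas the SDs and the standard errors also include the spread between libraries.

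The test of the counts was that of edgeR 4.0.16 in R 4.3.3 (filterByExpr, TMM, 1 quasi-likelihood fit with 4 groups, Benjamini-Hochberg over 18368 genes). Changed means an adjusted p under 0.05, and a DEG also has a log2 fold change of 1 or more in size. Standard errors are the absolute log2 fold change divided by the square root of F. The likeness of patterns used log2 CPM with a prior count of 2. SOD2 is listed in 2 rows, and that with more counts was used. Figures were drawn with matplotlib 3.10.9 and pandas 2.3.3 under Python 3.11.15.

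The members and gene lists were chosen with earlier results of these data known. Named beside the members are the siRNA targets, the DEGs of each list (where a list has none, its highest and lowest gene), the 3 genes most like a DEG member, and genes that overlap a member. Besides SIRT2 and AL357060.1, AP001362.2 shares 9 bases with RELA on the opposite strand and had 14 to 42 counts per library. RNU4-51P and AC010733.2 overlap REL and AL009183.1 overlaps TNFRSF9, each with at most 1 count per library. NFKBID, and the marker genes, are named to complete their short lists. Some marker genes are not reported here. Alternatives were DESeq2 1.42.0 with 4 or 2 groups per fit, RLE and upper quartile scaling, no filter, a minimum of 10 counts per library, edgeR on 2 groups alone, a replicate block, limma-trend (limma 3.58.1) on log2(FPKM + 1) and log2(FPKM + 0.1) for genes with an FPKM of at least 1 in 2 libraries, protein-coding genes, and each library left out.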

Additional observations from a re-analysis of the deposited data

How the results depend on the processing

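Over the alternatives, 1198 of the log2 fold changes of the 10 genes kept their direction and side of the threshold, 68 lost and 11 gained the threshold, and 13 turned sign. The number of the 10 changed against control in siURM1 was 3 with DESeq2 (4 groups or 2 groups per fit) and with no filter. In siUBE2M it was 3 with limma on either FPKM scale. Between siNAE1 and siUBE2M it was 2 with both DESeq2 fits, and between siUBE2M and siURM1 it was 1 with DESeq2 (2 groups) and with upper quartile scaling. The DEG count became 0 in each knockdown with at least 10 counts in every library and with limma, because TNFRSF9 was not among the genes tested there. Of the lists, receptors in siURM1 gave 1 (DESeq2, 2 groups) or 5 (at least 10 counts, or protein-coding genes), receptors in siUBE2M gave 3 (limma, pseudocount 1) and targets in siUBE2M gave 4 (DESeq2, 2 groups). For the nuclear inhibitors the count in siNAE1 was 0 with DESeq2 (2 groups) and 1 with DESeq2 (4 groups), upper quartile scaling, no filter, at least 10 counts, limma and protein-coding genes. In siUBE2M it was 0 with DESeq2, no filter and limma, and in siURM1 0 with DESeq2 (2 groups) and 1 with limma.

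With each library left out in turn, the number of the 10 changed ranged from 6 to 9 in siNAE1, 3 to 5 in siUBE2M, 3 to 5 in siURM1, 1 to 3 between siUBE2M and siURM1 and 2 to 5 between siNAE1 and siUBE2M, and the DEG count in siUBE2M from 0 to 1. The nuclear inhibitors ranged from 0 to 2 in siNAE1, 0 to 1 in siUBE2M and 0 to 2 in siURM1, receptors in siURM1 from 1 to 4, and brakes in siURM1 from 5 to 8. Signs turned for values that passed no test. These were NFKB1 between siNAE1 and siUBE2M (-0.08 to 0.02), siNAE1 and siURM1 (-0.13 to 0.05) and siUBE2M and siURM1 (-0.11 to 0.07), REL between siNAE1 and siURM1 (-0.34 to 0.25) and in siURM1 (-0.48 to 0.06), RELB in siUBE2M (-0.18 to 0.02), NFKBIE between siNAE1 and siURM1 (-0.08 to 0.24), GADD45B (-0.05 to 0.15) and TRADD (-0.04 to 0.25) in siUBE2M, and, in siURM1, NFKBIZ (-0.1 to 0.03), CXCL8 (-1.15 to 0.26), CXCL2 (-0.64 to 0.76) and BCL2L1 (-0.16 to 0.02). Upper quartile scaling gave 0.01 for NFKB1 and 0.01 for RELA between siUBE2M and siURM1. The causes were not tested, apart from the smaller groups and gene sets named.

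Replicate numbers did not pair the libraries, since deviations from group means correlated at -0.066 to 0.079 for 15 pairs with the same number and -0.101 to 0.073 for 30 others. With the number as a block, the counts changed were 9, 5 and 4 against control in siNAE1, siUBE2M and siURM1, and 1, 4 and 4 for siNAE1 against siURM1, siUBE2M against siURM1 and siNAE1 against siUBE2M. The DEG count stayed at 1 in each knockdown under the block, and REL between siNAE1 and siURM1 turned to 0.03. The block lost RELB in siURM1 (0.51, adjusted p = 0.068) and gained REL between siUBE2M and siURM1 (0.62, adjusted p = 0.017), TRADD in siURM1 (0.42, adjusted p = 0.046) and PLAU in siURM1 (1.29, adjusted p = 0.021).

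The group means relative to control were the same within 1 percentage point in CPM and FPKM. Low counts limit the precision of TNFRSF9, CXCL8, CXCL2, ICAM1 and PLAU, among others.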
